A study of Mus musculus with 6 samples.

Results

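A set of 10 genes of the intermediate filament family was followed in NMuMG cells, an epithelial line from normal mouse mammary gland, during the response to TGFβ1. They are the keratins Krt5, Krt6a, Krt7, Krt8, Krt14, Krt17, Krt18 and Krt19, vimentin (Vim) and nestin (Nes). The 10 genes were chosen by symbol, and each matched 1 of the 21240 genes in the table of raw read counts. RNA was sequenced from 6 libraries in 3 groups of 2, labelled as biological replicates. All cells were first kept for 6 h without serum and insulin. They then received vehicle for 2 h (acid and BSA, given as HCl in one label and Tris-HCl in another), or TGFβ1 at 5 ng/ml for 2 h or for 12 h. The vehicle cells were collected at 2 h only, so in the comparisons of 12 h with vehicle and with 2 h exposure to the cytokine and the longer time without serum cannot be told apart. Every sample is the same cell line, and nothing in the labels says that the replicates came from separately derived lines.

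Intermediate filaments are the rope-like part of the cytoskeleton, and their composition differs between cell types. Keratins assemble only as pairs of a type I and a type II chain, such as KRT18 with KRT8 in simple epithelia or KRT14 with KRT5 in basal and myoepithelial cells of the mammary gland. Vimentin forms filaments on its own and is typical of mesenchymal cells, while nestin needs a partner such as vimentin. A gain of vimentin and a loss of epithelial filaments and junctions are commonly used to follow the epithelial to mesenchymal transition that TGFβ can start in mammary epithelium.

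After 12 h of TGFβ1, RNA of Krt8, Krt18, Krt7, Vim and Nes was higher than in vehicle cells, and RNA of Krt19 and Krt6a was lower. The calls of Krt7, Vim and Krt6a were each lost on leaving out particular single libraries, and that of Krt6a also in DESeq2. Krt8 was 3.10-fold and Krt18 2.88-fold higher, against 1.62-fold for Vim, while Krt19 was 3.86-fold lower. After 2 h, Krt8 and Krt6a were called higher among the 8 genes tested. Both calls were lost without vehicle replicate 2, and that of Krt6a also without vehicle replicate 1. DESeq2 and a fit with the replicate number as a block also called Krt14 and Vim at 2 h. Krt6a was then below the vehicle level at 12 h. Krt5 and Krt17 had too few reads to test.

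The 5 genes that were higher at 12 h lie on 3 chromosomes, and their promoters are shown because their RNA was higher in the same comparison. In the mm9 build used for the counts (NCBIM37, GENCODE annotation), Krt8 lies at chr15:101827142-101834773 on the minus strand and Krt18 at chr15:101858647-101862457 on the plus strand. The pair are neighboring coding genes with starts 23.9 kb apart. Krt7 lies at chr15:101241474-101260744, Vim at chr2:13495554-13504453 and Nes at chr3:87775000-87784373, all on the plus strand. The remaining genes are on the minus strand, with Krt6a at chr15:101520363-101524738, Krt5 at chr15:101537501-101543322, Krt19 at chr11:100002124-100009979, Krt14 at chr11:100064476-100068862 and Krt17 at chr11:100117531-100122343. The sequences below are RefSeq promoters in another build, GRCm38.p6, from 250 bases before to 50 bases after the annotated start, written 5′ to 3′ on the strand of the gene. Capitals mark matches of 4 motifs, searched on both strands. The TATA box was searched as TATAAA. The AP-1 site was searched as TGANTCA. The box bound by SMAD proteins was searched as CAGAC. The E-box bound by SNAI and ZEB factors was searched as CAGGTG.
Krt8 (chr15:102004293-102004592, minus strand): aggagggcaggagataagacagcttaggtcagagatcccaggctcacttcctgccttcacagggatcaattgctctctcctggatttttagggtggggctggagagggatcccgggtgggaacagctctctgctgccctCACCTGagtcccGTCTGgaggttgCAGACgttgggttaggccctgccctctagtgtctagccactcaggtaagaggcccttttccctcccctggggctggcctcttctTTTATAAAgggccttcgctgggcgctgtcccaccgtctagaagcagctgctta
Krt18 (chr15:102027966-102028265, plus strand): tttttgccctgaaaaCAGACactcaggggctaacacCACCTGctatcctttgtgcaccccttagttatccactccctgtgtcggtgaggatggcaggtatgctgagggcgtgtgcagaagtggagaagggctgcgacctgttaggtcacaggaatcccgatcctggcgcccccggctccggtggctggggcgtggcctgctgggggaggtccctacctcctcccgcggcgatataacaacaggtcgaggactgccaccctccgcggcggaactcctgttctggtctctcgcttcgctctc
Krt7 (chr15:101412153-101412452, plus strand): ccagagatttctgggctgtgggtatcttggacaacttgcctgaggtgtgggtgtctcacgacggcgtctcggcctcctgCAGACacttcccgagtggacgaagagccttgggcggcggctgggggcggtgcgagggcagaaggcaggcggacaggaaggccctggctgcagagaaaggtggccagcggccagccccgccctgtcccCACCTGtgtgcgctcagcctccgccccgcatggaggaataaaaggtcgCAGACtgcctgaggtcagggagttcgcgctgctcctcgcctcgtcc
Vim (chr2:13574061-13574360, plus strand): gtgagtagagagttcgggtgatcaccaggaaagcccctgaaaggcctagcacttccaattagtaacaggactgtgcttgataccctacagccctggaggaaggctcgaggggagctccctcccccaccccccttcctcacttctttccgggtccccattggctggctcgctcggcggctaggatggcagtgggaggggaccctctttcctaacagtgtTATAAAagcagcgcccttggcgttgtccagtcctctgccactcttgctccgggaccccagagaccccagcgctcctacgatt
Nes (chr3:87970843-87971142, plus strand): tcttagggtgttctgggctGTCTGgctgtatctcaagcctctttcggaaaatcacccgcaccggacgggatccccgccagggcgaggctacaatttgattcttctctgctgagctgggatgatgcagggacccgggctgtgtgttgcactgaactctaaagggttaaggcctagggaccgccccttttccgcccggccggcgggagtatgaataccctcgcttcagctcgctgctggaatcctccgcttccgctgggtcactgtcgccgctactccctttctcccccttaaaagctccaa
The SMAD box was present in 4 of these 5 promoters, those of Krt8, Krt18, Krt7 and Nes, and in 49.6% of the 32851 mouse promoters of the same length. The E-box was found in 3 of the 5 (Krt8, Krt18 and Krt7), against 20.2% of all promoters. Outside the 5, Krt14, not called at 12 h, also had a SMAD box, and Krt5, which was not tested, had an E-box. The TATA box letters occurred in 2 of the 5. In Vim the match began 32 bases before the RefSeq start. The first bases of a GENCODE transcript were found in the windows of the other 4 genes but not in that of Vim. In Krt8 a match on each strand overlapped at the start itself, and 13.6% of all promoters had one. No AP-1 letters occurred in any of the 5 windows or in those of Krt5 and Krt14, against 7.81% of all promoters. GC content was between 58.0% (Krt8) and 66.3% (Krt7). These are matches of letters, not binding sites. The promoter table matched 7 of the 10 genes, and Krt6a, Krt17 and Krt19 had no entry.

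Library depth was 14705886 to 23786993 counts, and TMM normalization factors were between 0.961 and 1.07. Values are given as TMM-normalized CPM (read counts scaled to library size), with the SD of 2 libraries. Of the 21240 genes, 11080 reached 2 CPM in at least 2 libraries and were tested. The treatment was visible in the known TGFβ target Smad7, with a log2FC of 2.07 at 2 h and 2.65 at 12 h. Of 6 epithelial markers, 3 were expressed above the filter. Cdh1, the epithelial cadherin, stood at 392 ± 41.0 CPM in vehicle cells, 530 ± 111 at 2 h and 372 ± 49.1 at 12 h. In contrast, Epcam had 2 to 16 counts per library, and Esrp1 and Cldn7 also stayed near zero, so the markers above the filter were Cdh1, Krt8 and Krt18. The 5 fibroblast markers summed to 3.51 to 4.00 CPM in vehicle cells, 8.40 to 8.78 at 2 h and 13.3 to 13.9 at 12 h. Of these, Thy1 was at 0 in every library, Lum had at most 1 count, Dcn had 10 and 1 counts in vehicle, 11 and 2 at 2 h, and 1 and 0 at 12 h, and Pdgfra stood at 1.87 to 3.04 CPM over all libraries. Col1a1 made most of the rise. Of 6 myoepithelial or basal markers, only Krt14 passed the filter, and Trp63 and Cnn1 had at most 3 counts in any library. The 6 summed to 3 to 5.3 CPM in vehicle cells, 9.26 to 12.2 at 2 h and 6.19 to 9.4 at 12 h. Krt14 made most of each sum. Acta2 had 4 and 4 counts in vehicle, 17 and 6 at 2 h, and 15 and 11 at 12 h. The endothelial markers summed to 0.118 to 0.191 CPM in vehicle cells, 0.304 to 0.353 at 2 h and 1.74 to 1.95 at 12 h, with Pecam1 and Kdr at most 2 counts in any library and Cdh5 at 39 and 36 counts at 12 h. The leukocyte sum was 4.14 to 7.01 CPM over all libraries, the neural sum 2.57 to 4.59 CPM, and the adipocyte markers were at most 1 count each. In the leukocyte list Cd68 had 95 to 124 counts per library, and Ptprc and Lyz2 had at most 4. Within the neural list Pax6 was at 0, Sox2 had 36 to 83 counts, and Sox10 had 0 and 0 counts in vehicle, 28 and 15 at 2 h, and 15 and 9 at 12 h. The part of these markers in the results was not tested. In such bulk samples, more RNA per cell and more cells of a type cannot be told apart.

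Of the 8 tested genes, 2 were higher and 0 lower at 2 h (edgeR quasi-likelihood test, Benjamini-Hochberg adjusted p under 0.05), when 15.2% of all tested genes were called. Only 1 of them, Krt6a, was also past 2-fold, against 6.25% of all tested genes. At 12 h, 5 were higher and 2 lower than in vehicle, against 43.3% of all genes called in either direction. With the 2-fold limit, 4 were higher and 2 lower, against 19.6% of all genes. The median log2FC of the 8 genes was 0.71 at 2 h and 1.21 at 12 h, beside -0.01 and 0.02 over all tested genes. Between the treated groups, 3 were higher and 2 lower at 12 h than at 2 h, against 34.1% of all genes, and 2 and 2 of them past 2-fold, against 14.4%. The comparisons with vehicle share the 2 vehicle libraries. The number called fell in some or all fits with 1 library left out, in each comparison. At 2 h it rose in DESeq2 and with the replicate number as a block, as it did over all tested genes. Krt6a reached 2 CPM only in the 2 h libraries, Nes only in the 12 h libraries and Krt7 only in treated libraries, so their place among the tested genes depended on the groups in which they were high, and these counts and medians are descriptions.

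**Figure D1:**
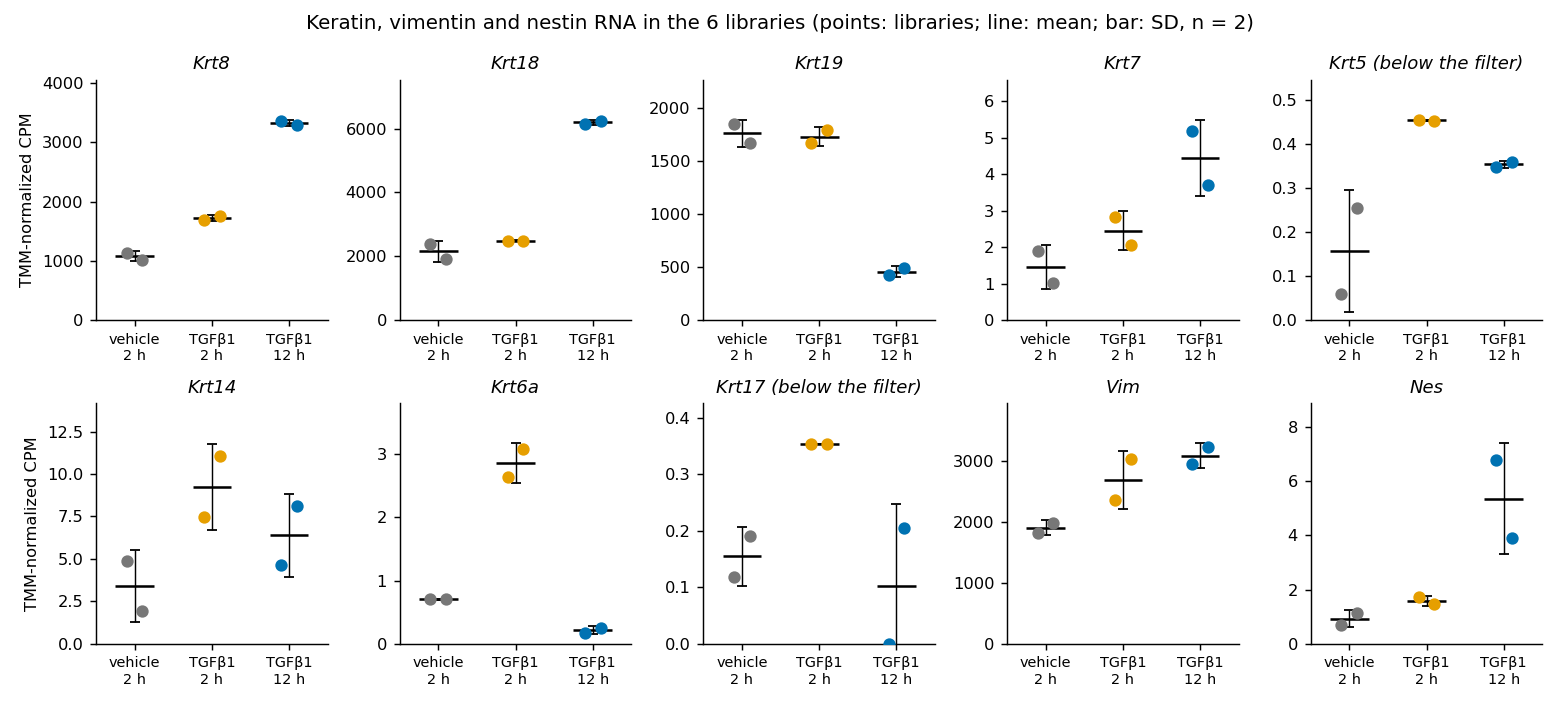
TMM-normalized CPM of each of the 10 genes on its own linear axis from 0, by group, with a point per library, the group mean as a line and the SD (n = 2) as a bar. Krt8 and Krt18 are highest at 12 h, Krt19 is lowest at 12 h, and Krt6a is highest at 2 h.

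KRT8 and KRT18 form the keratin pair of simple and luminal epithelia. Krt8 stood at 1133 and 1016 CPM in the 2 vehicle libraries, 1683 and 1765 CPM at 2 h, and 3367 and 3298 CPM at 12 h. The groups did not overlap, and each later group was above the one before it. The log2FC was 0.68 at 2 h (SE 0.108, adjusted p = 0.00874, edgeR) and 1.63 at 12 h (SE 0.110, adjusted p = 0.000114), and 12 h exceeded 2 h by 0.95 (adjusted p = 0.00133). The call at 2 h was lost without vehicle replicate 2, with a log2FC of 0.60 and an adjusted p of 0.0665.

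Krt18, the type I partner, stood at 2383 and 1918 CPM in vehicle, 2489 and 2471 CPM at 2 h, and 6132 and 6249 CPM at 12 h. The 2 h libraries were only just above the higher vehicle library, and the 12 h libraries were far above both groups. At 2 h the log2FC was 0.21 (SE 0.131, adjusted p = 0.348, edgeR), and at 12 h it was 1.53 (SE 0.134, adjusted p = 0.000275). The difference of 1.32 between 12 h and 2 h was past the threshold (adjusted p = 9e-04). The ratio of Krt18 to Krt8 levels per kb was 2.57 ± 0.197 in vehicle cells, 1.86 ± 0.0721 after 2 h and 2.40 ± 0.0668 after 12 h (SD, n = 2). Counting only the length of transcript windows found once in the genome, which matters for Krt8, the ratio was 1.18 ± 0.0902, 0.851 ± 0.0331 and 1.10 ± 0.0306.

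KRT19, the smallest keratin, is a type I chain of simple epithelia that can also pair with KRT8. Krt19 stood at 1847 and 1666 CPM in vehicle, 1663 and 1791 CPM at 2 h, and 420 and 490 CPM at 12 h. Vehicle and 2 h libraries overlapped, and both 12 h libraries were well below them. The log2FC was -0.02 at 2 h (SE 0.123, adjusted p = 0.916, edgeR) and -1.95 at 12 h (SE 0.128, adjusted p = 0.000103), and 12 h was below 2 h by a log2FC of -1.92 (adjusted p = 0.000266). The near-zero value at 2 h changed sign without vehicle replicate 1, to 0.05, and without 2 h replicate 1, to 0.01.

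KRT7, a type II chain of ductal epithelia, was scarce. Krt7 had 1.89 and 1.02 CPM in vehicle, 2.84 and 2.07 CPM at 2 h, and 5.19 and 3.70 CPM at 12 h, from 16 to 119 counts per library. The groups did not overlap, although the values at 12 h were spread widely. The log2FC was 0.75 at 2 h (SE 0.389, adjusted p = 0.258, edgeR) and 1.61 at 12 h (SE 0.377, adjusted p = 0.0141), with 0.86 between 12 h and 2 h (SE 0.353, adjusted p = 0.106). The call at 12 h was lost without vehicle replicate 2 (1.23, adjusted p = 0.0729) and without 12 h replicate 1 (1.32, adjusted p = 0.0994). With the replicate number as a block, 12 h against 2 h passed (0.85, adjusted p = 0.0121).

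KRT6A belongs to the keratins that epidermis and other epithelia make on injury and stress. Krt6a had 12 and 11 counts in vehicle, 52 and 61 at 2 h, and 4 and 5 at 12 h, which is 0.707, 0.701, 2.63, 3.08, 0.174 and 0.257 CPM. The 2 h libraries were the highest and the 12 h libraries the lowest, with no overlap. The log2FC was 2.01 at 2 h (SE 0.332, adjusted p = 0.0102, edgeR), -1.69 at 12 h (SE 0.448, adjusted p = 0.0219) and -3.70 between 12 h and 2 h (SE 0.382, adjusted p = 0.000953). Since it passed the filter only through the 2 h libraries, it was also fitted with no filter on low counts, where the adjusted p was 0.0073, 0.0225 and 0.000265 in the same order. The first call was lost without vehicle replicate 1 (2.01, adjusted p = 0.0748) or vehicle replicate 2 (2.00, adjusted p = 0.0726), and without either 2 h library the gene no longer passed the filter. At 12 h the call was lost in DESeq2 (-1.73, adjusted p = 0.0628), without vehicle replicate 1 (adjusted p = 0.0847) or replicate 2 (adjusted p = 0.0845), and without 12 h replicate 1 (adjusted p = 0.114) or replicate 2 (adjusted p = 0.0600).

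The chains of basal and myoepithelial cells were scarce. Krt14, the type I partner of Krt5, had 4.89 and 1.91 CPM in vehicle, 7.44 and 11.05 CPM at 2 h, and 4.66 and 8.12 CPM at 12 h. The 2 h libraries were above both vehicle libraries, while the 12 h and vehicle libraries overlapped. The log2FC was 1.43 at 2 h (SE 0.480, adjusted p = 0.0992, edgeR) and 0.90 at 12 h (SE 0.482, adjusted p = 0.178), with -0.54 between 12 h and 2 h (SE 0.455, adjusted p = 0.399). The 2 h value passed in DESeq2 (adjusted p = 0.0362) and with the replicate number as a block (1.39, adjusted p = 0.0305), and the 12 h value passed without vehicle replicate 1 (1.73, adjusted p = 0.0469). The 2 h value was 2.27 without vehicle replicate 1 and 0.92 without vehicle replicate 2, and the 12 h value was 0.38 without vehicle replicate 2. Krt5 had 1 and 4 counts in vehicle, 9 and 9 at 2 h, and 8 and 7 at 12 h. Krt17, another stress keratin, had 2 and 3 counts in vehicle, 7 and 7 at 2 h, and 0 and 4 at 12 h. Neither was tested, since no library reached 2 CPM, and in a fit with no filter on low counts no comparison of Krt5 or Krt17 passed. Their counts of 0 to 9 per library leave any difference imprecise.

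Vimentin was abundant before TGFβ1 was added. Vim stood at 1821 and 1986 CPM in vehicle, 2350 and 3024 CPM at 2 h, and 2941 and 3223 CPM at 12 h. Both treated groups were above both vehicle libraries and overlapped each other, and the 2 h libraries were the most spread. The log2FC was 0.50 at 2 h (SE 0.149, adjusted p = 0.0726, edgeR) and 0.69 at 12 h (SE 0.149, adjusted p = 0.00981), with 0.20 between 12 h and 2 h (SE 0.148, adjusted p = 0.342). At 2 h it passed in DESeq2 (adjusted p = 0.0141), with the replicate number as a block (0.49, adjusted p = 0.00995) and without 2 h replicate 1 (0.65, adjusted p = 0.0212). The 12 h call was lost without vehicle replicate 1 (0.63, adjusted p = 0.0592) and without 12 h replicate 2 (0.62, adjusted p = 0.0767).

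Nestin, best known from neural progenitors, was very low in vehicle cells and passed the filter only through the 12 h libraries. Nes had 12 and 18 counts in vehicle, 34 and 29 at 2 h, and 156 and 76 at 12 h, which is 0.707, 1.15, 1.72, 1.46, 6.80 and 3.90 CPM. The groups did not overlap, and the first 12 h library was clearly above the other. The log2FC was 0.78 at 2 h (SE 0.430, adjusted p = 0.280, edgeR), 2.53 at 12 h (SE 0.403, adjusted p = 0.00292) and 1.75 between 12 h and 2 h (SE 0.370, adjusted p = 0.0123). With no filter on low counts the adjusted p was 0.000985 at 12 h and 0.00664 between 12 h and 2 h. Without either 12 h library the gene did not pass the filter and could not be tested.

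**Figure D2:**
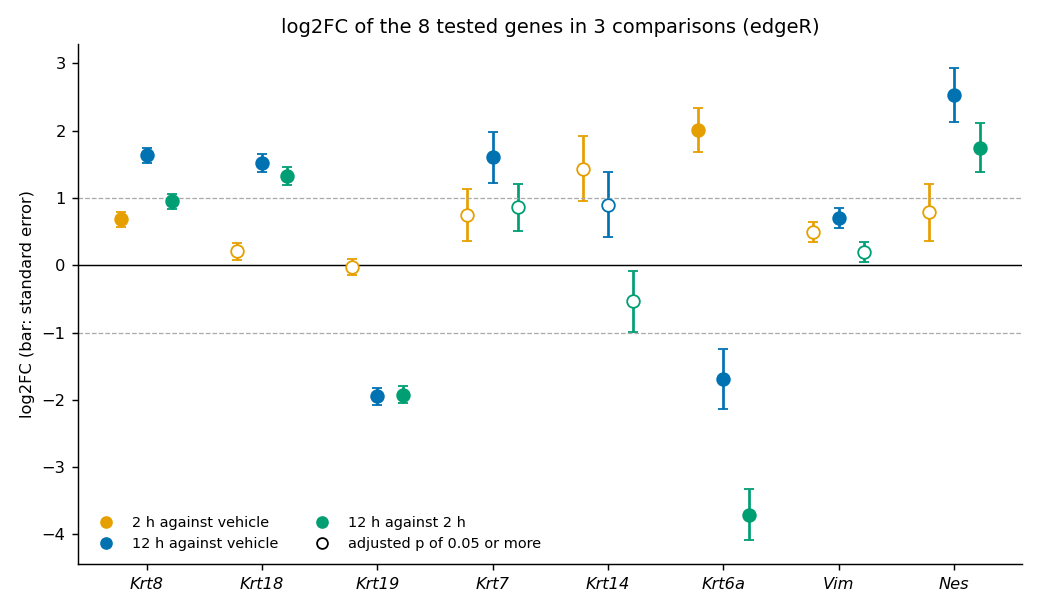
Log2FC of the 8 tested genes in each comparison, with the standard error as a bar and filled points for an adjusted p under 0.05. Nes, Krt8, Krt7 and Krt18 lie above 1 at 12 h against vehicle, Krt19 and Krt6a lie below -1, and Vim lies at 0.69.

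Levels were next compared between genes per kb of exon. In vehicle cells the order was Krt18 (1536 ± 235 CPM per kb), Krt19 (947 ± 68.9), Vim (815 ± 49.97) and Krt8 (595 ± 45.7), and the libraries of neighboring genes did not overlap. The other 6 genes were all at 1.93 CPM per kb or lower. At 2 h Krt18 led (1771 ± 9.13), followed by Vim (1151 ± 204), while Krt8 (955 ± 32.2) and Krt19 (931 ± 48.6) did not differ beyond their spread. At 12 h the order was Krt18 (4422 ± 59.2), Krt8 (1846 ± 26.8), Vim (1320 ± 85.3) and Krt19 (245 ± 26.5), with no overlap between neighbors. The remaining 6 genes stayed at 5.26 CPM per kb or lower in both treated groups.

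The place of Krt8 in this order depends on how its length is counted. Of its 1756 windows of 50 bases, the read length, 957 (54.5%) had an exact copy elsewhere in the genome, at chr7:24142113-24143830 within the span of the coding gene Nlrp4e. The authors kept uniquely mapped reads, and a read lying wholly in such a window matches more than 1 place. Per kb of windows found once, Krt8 stood at 1308 CPM in vehicle, above Krt19 and Vim, and at 2099 CPM at 2 h and 4058 CPM at 12 h, against 1548, 1785 and 4455 CPM for Krt18. Among the rest, Krt6a had 38.1% of windows with a copy, mostly in Krt6b, which had at most 2 counts in any library. Krt14 had 14.4% shared with Krt16 and Krt17, Krt5 6.35%, Krt17 3.75%, Krt7 1.23% and Krt18 0.74%, and Krt19, Vim and Nes had none. A fold change of a gene between groups does not change with the length used.

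**Figure D3:**
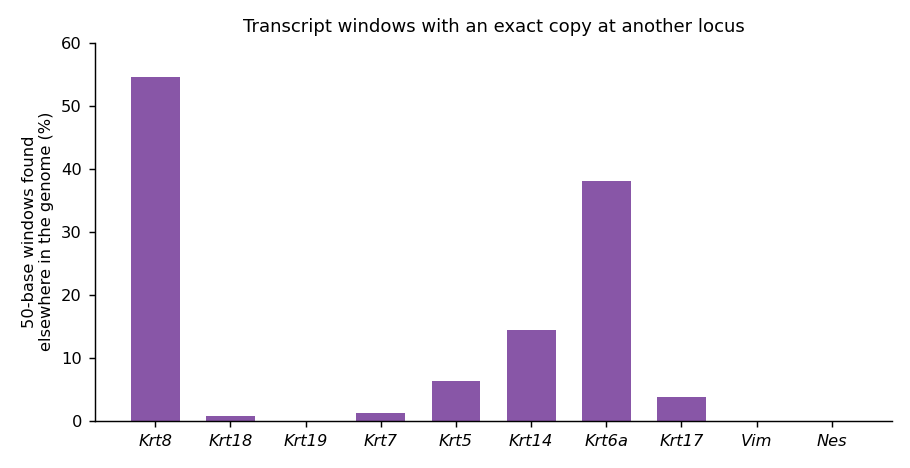
Percent of the 50-base transcript windows of each gene that have an exact copy at another genomic locus. Krt8 reaches 54.5% and Krt6a 38.1%, and Krt19, Vim and Nes are at 0%.

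The make-up of the keratin RNA pool changed with time. Summed over all keratins with an exon length, the level was 3107 ± 355 CPM per kb in vehicle cells, 3737 ± 60.3 at 2 h and 6619 ± 48.8 at 12 h. Krt19 made 29.7% and 31.5% of it in the vehicle libraries, 24.3% and 25.5% at 2 h, and 3.44% and 3.97% at 12 h. Krt18 made 49.3% ± 1.92, 47.4% ± 1.01 and 66.8% ± 0.402 in the same order, and Krt8 19.2% ± 0.723, 25.6% ± 0.450 and 27.9% ± 0.611. With the length of windows found once, the Krt8 share was 34.2% ± 1.05, 42.9% ± 0.576 and 45.8% ± 0.754, and the Krt18 share 40.3% ± 1.84, 36.5% ± 0.928 and 50.2% ± 0.574. The ratio of Krt18 to Krt19 levels was 1.62 ± 0.130 in vehicle cells, 1.91 ± 0.109 after 2 h and 18.1 ± 1.71 after 12 h. Type I chains together made 80.7% ± 0.727 in vehicle, 74.3% ± 0.476 at 2 h and 72.02% ± 0.601 at 12 h, and no 2 of these groups overlapped. With the length of windows found once, these type I shares were 65.7%, 57.0% and 54.2%. No test of the shares was made. The keratin total relative to Vim was 3.83 ± 0.670 in vehicle cells, 3.29 ± 0.532 after 2 h and 5.02 ± 0.288 after 12 h.

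**Figure D4:**
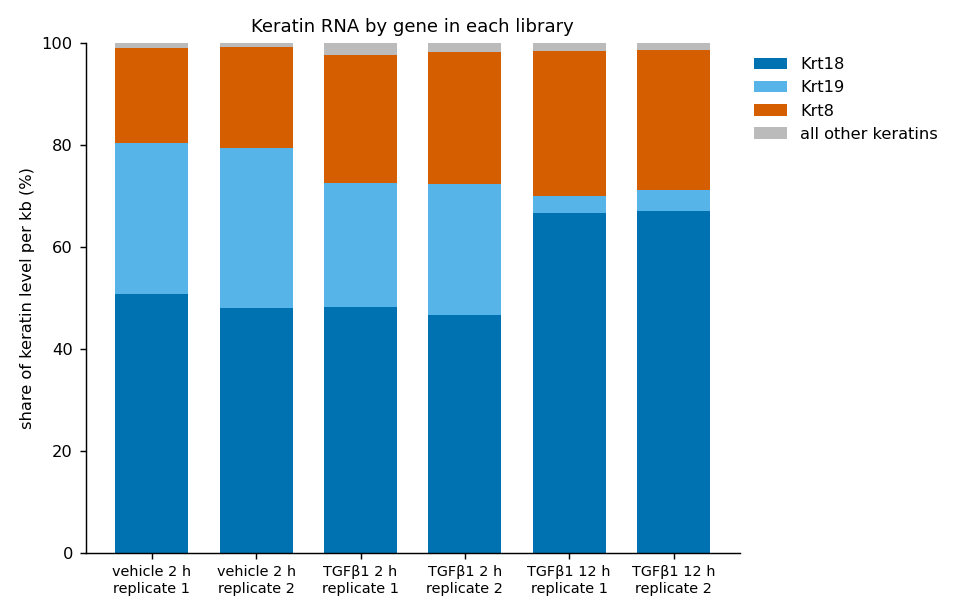
Share of the summed keratin level per kb (percent) taken by Krt18, Krt19, Krt8 and all other keratins together, with a stacked bar per library. Krt19 takes 29.7% to 31.5% in vehicle libraries and 3.44% to 3.97% at 12 h, where Krt18 takes 66.5% to 67.1%.

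Of the 46 other keratins in the table, 26 had at most 3 counts in every library and 4 passed the filter. At 2 h 1 of the 4 was higher, against 15.2% of all tested genes called, and at 12 h 2 were higher and 1 lower, against 43.3%, with a median log2FC of 0.69 and 1.27. Krt20, a type I chain of intestinal and urothelial cells, stood at 45.8 and 31.6 CPM in vehicle, 144 and 102 CPM at 2 h, and 197 and 163 CPM at 12 h. Its treated libraries were all above the vehicle libraries, by a log2FC of 1.67 at 2 h (adjusted p = 0.00593, edgeR) and 2.22 at 12 h (adjusted p = 0.000612). Krt80, a type II chain whose gene is the neighbor of Krt7 with starts 40.9 kb apart, stood at 1.89 and 3.70 CPM in vehicle, 4.10 and 6.76 CPM at 2 h, and 15.0 and 19.6 CPM at 12 h. Its log2FC was 0.97 at 2 h (adjusted p = 0.156, edgeR) and 2.64 at 12 h (adjusted p = 0.00209), and 1 of its vehicle libraries was below 2 CPM. Krt76, a type II chain of oral epithelium, had 39 and 23 counts in vehicle, 25 and 41 at 2 h, and 1 and 3 at 12 h. It was at least 13.2-fold lower at 12 h than in vehicle, computed against 3 counts in each 12 h library (adjusted p = 0.00248, edgeR), and it reached 2 CPM in 1 vehicle library and 1 library at 2 h. Krt16, chosen after its values were seen because it is a stress keratin like Krt6a, had 1 and 3 counts in vehicle, 22 and 52 at 2 h, and 20 and 16 at 12 h, below the filter. It was not tested, and its 2 h libraries were unequal.

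Among 14 other intermediate filament genes, 4 passed the filter and 1, Lmna, was called at 2 h and at 12 h, against 15.2% and 43.3% of all tested genes. Lmna, which encodes the A-type lamins of the nuclear lamina, stood at 696 ± 119 CPM in vehicle, 1548 ± 354 at 2 h and 1512 ± 61.9 at 12 h. Its log2FC was 1.15 at 2 h (adjusted p = 0.0103, edgeR) and 1.12 at 12 h (adjusted p = 0.00388). The B-type lamins Lmnb1 and Lmnb2 and synemin (Synm) were not called in any comparison, and the median log2FC of the 4 was 0.46 at 2 h and 0.35 at 12 h.

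Genes for proteins that link filaments to junctions and to other filaments all passed the filter. Pkp3 reached 2 CPM only in the 2 h libraries and Evpl only in treated libraries, so the counts and medians below are descriptions. Of the 13 linker genes, 5 were higher and 1 lower at 2 h, against 15.2% of all tested genes called. At 12 h 9 were higher and 2 lower, against 43.3%. The median log2FC was 0.29 at 2 h and 0.52 at 12 h. Pkp1, the desmosomal plakophilin of stratified epithelia, rose from 9.83 ± 3.32 CPM in vehicle to 36.3 ± 14.5 at 2 h and 141 ± 28.5 at 12 h. Its log2FC was 1.89 at 2 h (SE 0.348, adjusted p = 0.0155, edgeR) and 3.85 at 12 h (SE 0.363, adjusted p = 0.000346). Jup, which encodes plakoglobin of desmosomes and adherens junctions, stood at 389 ± 14.1 CPM in vehicle, 1113 ± 39.0 at 2 h and 1144 ± 34.1 at 12 h. Its log2FC was 1.52 and 1.56, with adjusted p = 0.000464 at 2 h and adjusted p = 9.87e-05 at 12 h (edgeR).

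Of the 7 plakins among them, large proteins that tie filaments to junctions and other structures, 1 was higher and 6 were not called at 2 h, and 5 were higher, 1 was lower and 1 was not called at 12 h, against 15.2% and 43.3% of all tested genes. The higher ones included Plec (0.77), Dsp (0.65), Dst (0.52) and Macf1 (0.33), named after their log2FC was seen. Ppl, periplakin, went from 218 ± 43.4 CPM in vehicle and 178 ± 12.1 at 2 h to 44.2 ± 0.178 at 12 h, a log2FC of -2.30 against vehicle (SE 0.157, adjusted p = 0.000118, edgeR). Evpl, encoding envoplakin, which can pair with periplakin, had a log2FC of 1.57 at 12 h (SE 0.407, adjusted p = 0.0202, edgeR), from a level of 0.944 ± 0.164 CPM in vehicle, and it reached 2 CPM only in treated libraries. Tchp, a keratin-binding protein, was lower at 12 h by a log2FC of -1.03 (SE 0.128, adjusted p = 0.00107, edgeR).

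**Figure D5:**
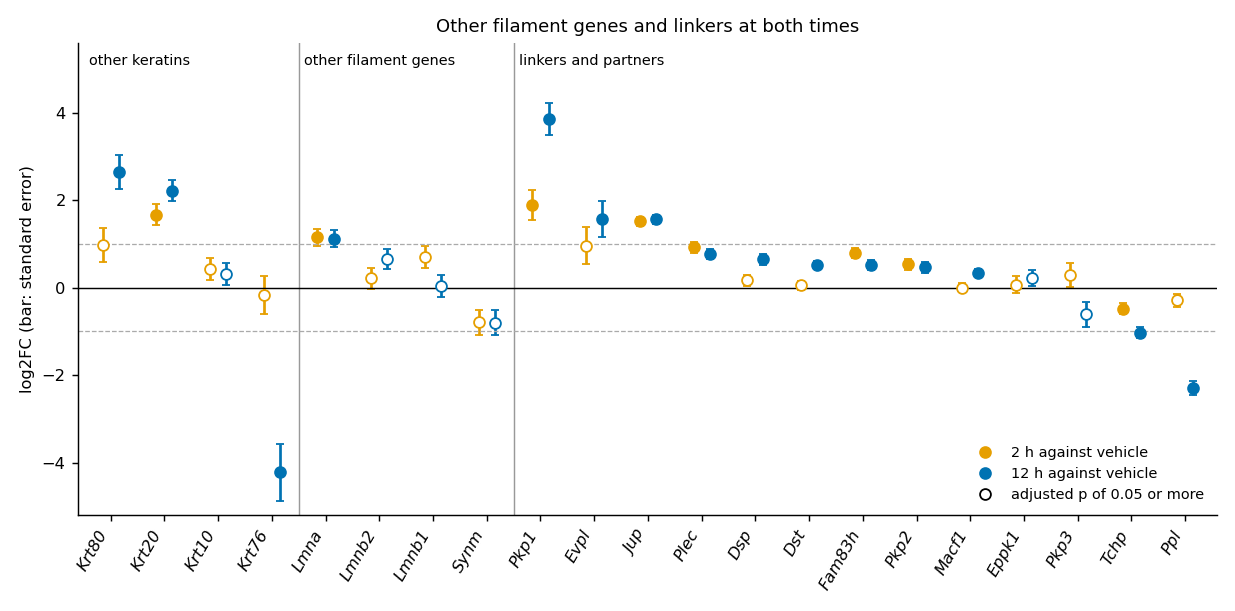
Log2FC against vehicle at 2 h and at 12 h for the tested other keratins, other filament genes and linkers, with the standard error as a bar and open points for an adjusted p of 0.05 or more. Pkp1 and Krt80 are highest at 12 h, and Krt76 and Ppl are lowest.

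The genes with the pattern most like 4 of the 10 were ranked by the root-mean-square difference in log2 CPM over the 6 libraries, centered on the vehicle mean. For Vim they were Atg101 (0.0432), Gna12 (0.0472) and Dnajb1 (0.0520), and for Krt8 Vegfa (0.0555), Ptk2b (0.0626) and Rasal2 (0.0818). For Krt19 they were Creg1 (0.0884), Ildr2 (0.108) and Xdh (0.109), and for Nes Aif1l (0.235), Slco3a1 (0.246) and Stk17b (0.259). The closest match of Nes was thus farther from it than those of the other genes were from theirs.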

How the data were processed

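The data are total RNA-seq of 6 libraries in 3 groups, read 1x50 bases. Per the methods, the authors aligned reads to mm9 with Rsubread, discarded duplicates and reads without a unique place, and used featureCounts to count the rest over exons. The deposited table gives counts per gene, not normalized (the submitters' notes name SAMtools 0.1.19, limma 3.34.9 and edgeR 3.20.9). Krt18 had 140681 counts over 1400 exon bases in 12 h replicate 1. Reads of 50 bases without duplicates could not reach that number, so the deposited counts appear to include duplicates. Groups came from the labels. Counts were tested in R 4.3.3 with edgeR 4.0.16 (quasi-likelihood test, TMM factors, 1 fit of the 3 groups), for genes at 2 CPM or more in at least 2 libraries, with two-sided p-values adjusted by Benjamini-Hochberg over all tested genes of a comparison. A gene was called at an adjusted p under 0.05, and past 2-fold at an absolute log2FC above 1. The standard error is the absolute log2FC divided by the square root of F. A fold against libraries of at most 3 counts is a bound computed at 3 counts per library. Likeness of patterns used a pseudocount of 0.25 CPM. limma 3.58.1 and DESeq2 1.42.0 were alternatives. Exon lengths and copies of 50-base windows came from NCBIM37 with GENCODE, read in Python 3.11.15 (pandas 2.3.3, numpy 2.4.6, numba 0.67.0). Of the 46 other keratins, 41 had an exon length.

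The 10 genes and the lists were chosen with earlier results of these data known. All 10 are named. From each list, genes called past 2-fold are named where each library of the higher group had 10 counts or more, at most 8 per list and comparison. Also named are 3 genes most like Vim, Krt8 and the called genes of highest and lowest log2FC at 12 h, Smad7 as a check of the treatment, and cell type markers. Another check gene is not reported here. Other genes were named after their values were seen. The p-values measure the spread between libraries of 1 cell line. The fit was tested on simulated counts of 10912 genes for 12 h against vehicle. It called 76 of 97 genes changed 2-fold (log2FC of 1), 99 of 99 changed by a log2FC of 2, and 8 unchanged genes. The simulation gave all genes 1 common spread and both treated groups the same change, unlike the data. It did not separate scarce genes.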

Additional observations from a re-analysis of the deposited data

Results flagged for a closer look

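For 5 of the 8 tested genes the level differed between the 2 times of TGFβ1, against 34.1% of all tested genes. The edgeR quasi-likelihood test compared 12 h with 2 h, where longer exposure and longer time without serum cannot be told apart. The log2FC between the times was 1.75 for Nes (adjusted p = 0.0123), 1.32 for Krt18 (adjusted p = 9e-04) and 0.951 for Krt8 (adjusted p = 0.00133), each higher at 12 h in 2 of 2 libraries. It was -1.92 for Krt19 (adjusted p = 0.000266) and -3.7 for Krt6a (adjusted p = 0.000953), each lower at 12 h in 2 of 2 libraries. Nes and Krt6a passed the filter only through the group in which they were high, and in a fit of the 16115 genes with any count the adjusted p was 0.00664 for Nes and 0.000265 for Krt6a.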

How the results depend on the processing

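Of the log2FC values of the 8 genes under other settings, 181 kept their direction and side of the threshold, 5 passed only under the alternative and 1 was lost (Krt6a at 12 h in DESeq2). With 1 library left out, 117 kept both, 2 changed sign (Krt19 at 2 h, range -0.0989 to 0.0488, with 0.0488 without vehicle replicate 1 and 0.00935 without 2 h replicate 1), 2 were gained and 11 lost; a group left with 1 library is assumed there to vary like the others. At 2 h, 4 genes were called in DESeq2 and 4 with the replicate block, 2 of them past 2-fold in each, and 1 and 0 when at least 10 counts were asked of every library, where Krt6a was not tested. Over all genes, calls at 2 h went from 1680 to 2091 in DESeq2, 3222 with the block and 1651 at 10 counts. Those past 2-fold went from 692 to 707, 813 and 641. Leaving out 1 library also moved the calls over all genes in each comparison, up in some fits and down in others. The next counts are of the 8 genes. With 1 library left out, called genes numbered 0 to 2 at 2 h (0 to 1 past 2-fold), 4 to 6 at 12 h (3 to 6) and 4 to 5 between the times (3 to 4). Only 2 pairs share replicate numbers per comparison, and deviations correlated between groups at 0.263 to 0.708; with 2 numbers and no label of what they share, the pairing was taken as not established, and the block raised the calls over all genes at 2 h from 1680 to 3222. Apart from Krt14 and Vim at 2 h and Krt7 between the times, the block changed no call of the 8 genes. Total counts without TMM factors moved the median log2FC of all genes by -0.11 at 2 h and -0.13 at 12 h and changed no direction or call of the 8. The type I share in vehicle, 2 h and 12 h was 65.7%, 57.0% and 54.2% with windows found once, an alternative chosen after seeing the data, and 81.7% and 75.4% in vehicle and 2 h with the longest transcript. The causes were not tested. With 2 libraries a group, and under 20 counts of Krt6a and Nes in vehicle, values of the scarce genes are imprecise.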
